A study of Homo sapiens with 4 samples.

Results

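The proteasome genes examined here were the protein-coding genes whose symbols begin with PSMA, PSMB, PSMC, PSMD, PSME, PSMF or PSMG. There were 50 such genes among the 60671 Ensembl gene IDs counted, and 47 of them had enough counts to be tested. They fell into the 14 constitutive subunits of the core particle, 17 subunits of the regulatory cap, 7 assembly factors, 5 activators or inhibitors, 5 alternative or tissue-restricted core subunits, and 2 genes named for the proteasome proteins that their products bind. RNA was sequenced from the MYCN-amplified human neuroblastoma cell line SK-N-BE(2), to ask how the transcriptome differs after METTL14 knockdown. The control group, shNC, carried a scramble short hairpin RNA, and the shMETTL14 group carried a hairpin against METTL14, a subunit of the methyltransferase that places m6A on RNA. Per the study's methods, genes were knocked down with the lentiviral vector pLKO.1, and stable shRNA lines were selected with puromycin. The methods name no vector for the control hairpin. They do not list RNA sequencing among the uses of these lines. The labels do not say which METTL14 hairpin was sequenced, so an effect of that hairpin on other targets and an effect of METTL14 loss cannot be told apart. Each group had 2 libraries, here called library 1 and library 2 of each group in that order, and nothing in the labels states that they came from separate cultures. The p-values therefore measure only the spread between these libraries.

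The proteasome degrades proteins that have been tagged with ubiquitin. Its core particle is a barrel of stacked rings, in which alpha subunits form the gate and beta subunits hold the proteolytic sites, while the cap recognises ubiquitin, removes it and feeds the unfolded substrate into the barrel through a ring of ATPases. Cells make the subunits in matched amounts, in part through the transcription factor NFE2L1, and proteasome inhibitors kill many kinds of cultured tumour cell, neuroblastoma lines among them.

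METTL14 (ENSG00000145388, chr4:118685368-118715433 in GRCh38) was lower in both knockdown libraries. It had 753 and 754 counts in the shNC libraries and 303 and 321 counts in the shMETTL14 libraries, a log2 fold change of -1.26 (SE 0.083, edgeR quasi-likelihood adjusted p = 3.64e-11). Each library held 18925786 to 19886214 counts assigned to genes. The change reached much of the transcriptome, and 52.5% of the 16309 tested genes passed an adjusted p of 0.05, 27.2% of them as higher and 25.3% as lower in shMETTL14. Between libraries of the same group the mean chi-square per gene was 2.27 to 2.78, against 33.5 to 34.8 between groups, so libraries of a group differed by more than counting noise and none was a repeat of another. The noradrenergic neuroblastoma markers PHOX2A, HAND2, GATA3, TH, DBH, CHGA and MYCN were detected in every library. Of these 7 markers, 6 were lower in shMETTL14 and MYCN was higher. Their summed level was 5242 to 5363 CPM (counts scaled to library size) in shNC and 5273 to 5328 CPM in shMETTL14. MYCN made up much of this sum, at a mean of 2616 CPM in shNC and 3173 CPM in shMETTL14. The sum therefore does not show the lower level of the other 6 markers.

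RNA for most genes of the proteasome core and cap was higher in the METTL14 knockdown libraries. Of the 7 assembly factors with a PSM symbol, 2 were called higher. Of the 47 tested members, 34 were higher, 1 was lower and 12 were not called, beside 27.2% of all tested genes called higher and 25.3% called lower. The increases were small. The median log2 fold change of the tested members was 0.30, with a range of -0.28 to 0.84, beside a median of -0.00095 over all tested genes. No member changed by 2-fold or more. The log2 fold change was above 0 for 44 members and below 0 for 3.

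Most members are abundant, and abundant genes were called more often. Of the 6467 tested genes with a mean log2 CPM of 5 or more, a limit chosen after the data were seen, 41.7% were called higher and 26.2% lower, with a median log2 fold change of 0.07. The members with that level numbered 39. The groups did not overlap, with both shMETTL14 libraries above both shNC libraries, for 39 of the 47 tested members, compared with 38.0% of all tested genes and 51.2% of those at that level. These are members of any level and not the same set as the 39 at that level. They include PSMB8, at a mean log2 CPM of 2.76, and not PSMC6, at 6.58. In the opposite order the groups did not overlap for 2 members, compared with 37.6% and 33.3%.

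**Figure D1:**
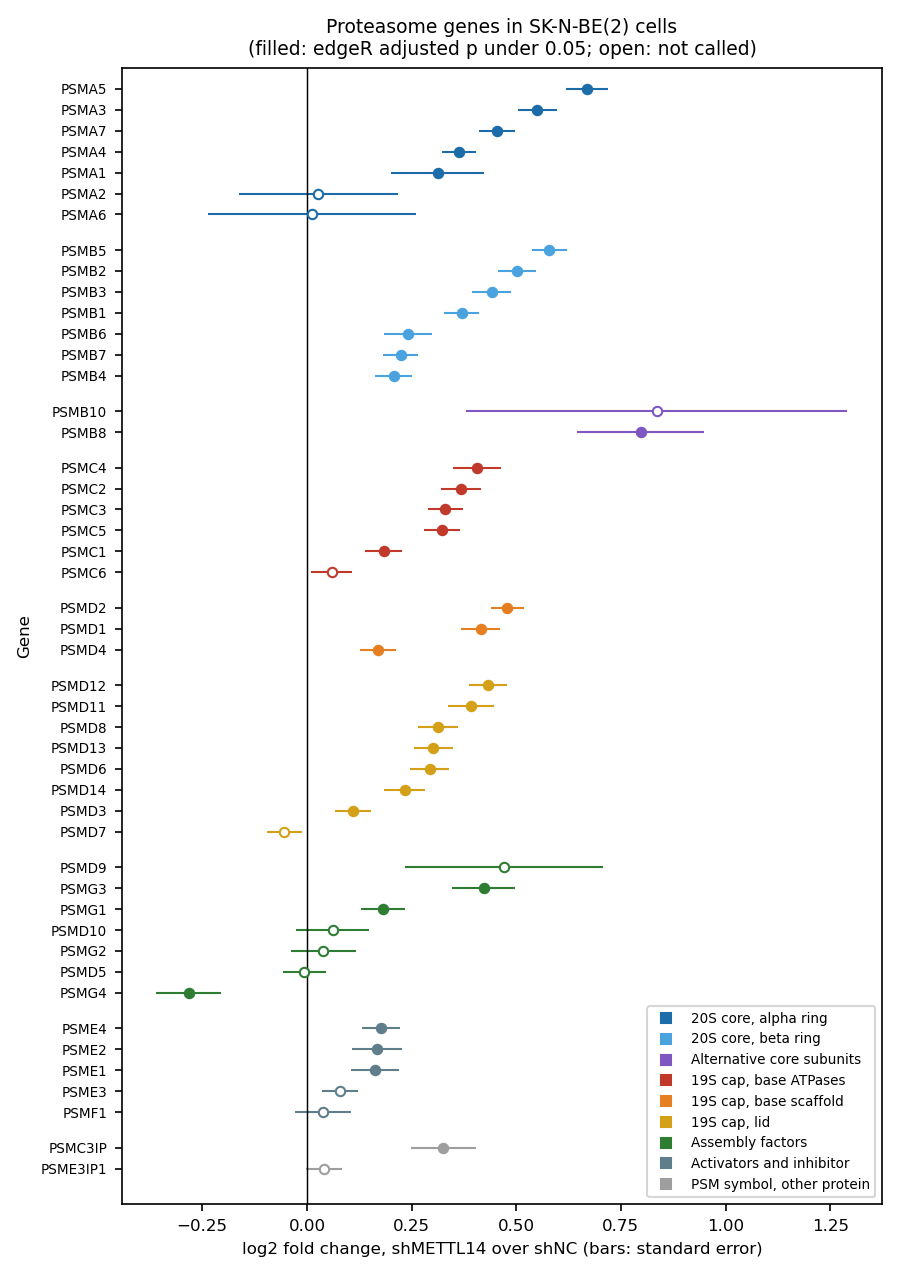
Log2 fold change of each tested proteasome gene, shMETTL14 over shNC, with its standard error, from 2 libraries per group. Filled points passed an edgeR adjusted p of 0.05 and open points did not. The core and cap subunits sit mostly to the right of 0, the assembly factors scatter around 0, and PSMG4 is the single filled point to the left.

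The alpha subunits form the outer rings of the core particle and its gate. Of the 7 alpha genes 5 were higher, beside 27.2% of all tested genes and 41.7% of the abundant genes described above. The median log2 fold change of the alpha genes was 0.36. PSMA5 (ENSG00000143106, chr1:109399031-109426427) had 1203 and 1160 counts in shNC and 1848 and 1883 counts in shMETTL14. That was 159% of the shNC level, a log2 fold change of 0.67 (SE 0.050, edgeR adjusted p = 3.04e-10), the largest in the constitutive core and cap. PSMA3 (ENSG00000100567, chr14:58244831-58272012) had 1836 and 1791 counts in shNC and 2602 and 2676 in shMETTL14, a log2 fold change of 0.55 (SE 0.046, edgeR adjusted p = 1.46e-09). For both genes the replicate libraries lay close together and the groups were far apart. PSMA7 rose by 0.45 on the log2 scale, PSMA4 by 0.36 and PSMA1 by 0.31. The PSMA1 call rested on few counts, 286 and 242 in shNC and 299 and 352 in shMETTL14, and was lost with DESeq2 and with upper quartile scaling. It was also lost without shNC library 2, at 0.23, and without shMETTL14 library 2, at 0.19.

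The 2 alpha genes that were not called were those with the fewest counts. PSMA2 had 97 and 74 counts in shNC and 85 and 88 in shMETTL14. PSMA6 had 66 and 44 counts in shNC and 54 and 56 in shMETTL14. In both genes the groups overlapped. Second genes on the same strand cover 100% of the principal coding sequence of PSMA2 and 89.7% of that of PSMA6. The part of this sharing in their low counts was not tested.

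All 7 beta genes were higher, beside 27.2% of all tested genes and 41.7% of the abundant genes. The median log2 fold change of the beta genes was 0.37. PSMB5, PSMB6 and PSMB7 encode the catalytic subunits, which cut after hydrophobic, acidic and basic residues respectively. PSMB5 (ENSG00000100804, chr14:23016543-23035230), whose product is the main target of bortezomib, had 2923 and 2979 counts in shNC and 4443 and 4322 in shMETTL14. This was 149% of the shNC level, a log2 fold change of 0.58 (SE 0.043, edgeR adjusted p = 2.23e-10). The other catalytic genes rose less. PSMB6 had 1197 and 1218 counts in shNC and 1369 and 1467 in shMETTL14, a log2 fold change of 0.24 (SE 0.057, edgeR adjusted p = 0.00113). PSMB7 had 3198 and 3140 counts in shNC and 3640 and 3715 in shMETTL14, a log2 fold change of 0.22 (SE 0.042, edgeR adjusted p = 1.14e-04). The intervals of 1 SE for PSMB6 and PSMB7 overlapped each other and not that of PSMB5, and the differences between these genes were not tested. Among the structural beta subunits, PSMB2 (ENSG00000126067, chr1:35599544-35641844) had 3109 and 3201 counts in shNC and 4356 and 4522 in shMETTL14, a log2 fold change of 0.50 (SE 0.045, edgeR adjusted p = 4.47e-09). PSMB3 rose by 0.44 on the log2 scale, PSMB1 by 0.37 and PSMB4 by 0.21. Within the core the increase was therefore uneven, from 115% of the shNC level for PSMB4 to 159% for PSMA5 among the called genes.

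The alternative catalytic subunits replace the constitutive ones in the immunoproteasome, a form induced by interferon that favours peptides for antigen presentation. PSMB8 (ENSG00000204264, chr6:32840717-32844703), the counterpart of PSMB5, had 93 and 98 counts in shNC and 170 and 160 in shMETTL14. It reached 174% of the shNC level, a log2 fold change of 0.80 (SE 0.15, edgeR adjusted p = 1.39e-04), the largest called increase of any member. PSMB8 nevertheless remained a minor transcript beside PSMB5, at 3.18 and 3.29 counts per 100 PSMB5 counts in shNC and 3.83 and 3.70 in shMETTL14. PSMB10, the counterpart of PSMB7, had 8 and 15 counts in shNC and 17 and 24 in shMETTL14, and its log2 fold change of 0.84 had an SE of 0.46 and was not called (edgeR adjusted p = 0.131). PSMB9, the counterpart of PSMB6, had 0 and 2 counts in shNC and 7 and 3 in shMETTL14 and was too low to test. PSMB9 and PSMB10 were near the limit of detection, and PSMB8 shares 20.6% of its exonic bases with genes on the opposite strand. The testis subunit PSMA8 had 0, 0, 0 and 1 counts across the libraries and the thymus subunit PSMB11 had 1, 0, 0 and 0, where a count of 0 allows up to 3.

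Other genes of antigen presentation were called in part. Of 9 such genes and regulators, 5 were higher and 4 were not called, beside 27.2% of all tested genes called higher and 25.3% called lower. NLRC5, the activator of MHC class I genes, rose by 1.17 on the log2 scale, TAP2 by 0.51, HLA-C by 0.31, TAPBP by 0.29 and B2M by 0.14. TAP1, HLA-B, ERAP1 and IRF1 were not called, with log2 fold changes of 0.24, -0.27, 0.19 and -0.16. Without shNC library 2, TAPBP was not called at 0.18, while ERAP1 was called at 0.39, and without shMETTL14 library 1 HLA-C was not called at 0.26. HLA-C was also not called with DESeq2, nor B2M with upper quartile scaling at 0.07.

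The cap divides into a base, with 6 ATPases and the scaffold subunits, and a lid that removes ubiquitin chains. Of its 17 genes 15 were higher and none was called lower, beside 27.2% higher and 25.3% lower among all tested genes. Among the abundant genes described above 41.7% were higher and 26.2% lower. The median log2 fold change of the cap genes was 0.31. The ATPase genes PSMC4, PSMC2, PSMC3, PSMC5 and PSMC1 rose by 0.41, 0.37, 0.33, 0.32 and 0.18 on the log2 scale. The last ATPase gene, PSMC6, had 1933 and 1715 counts in shNC and 1911 and 1864 in shMETTL14. Its groups overlapped and its log2 fold change of 0.06 (SE 0.049) was not called (edgeR adjusted p = 0.326), at a depth near that of PSMC2.

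All 3 base scaffold and receptor genes were higher. PSMD2 (ENSG00000175166, chr3:184298709-184309054), which encodes a large scaffold that docks ubiquitin carriers, had 4349 and 4093 counts in shNC and 5854 and 5827 in shMETTL14, a log2 fold change of 0.48 (SE 0.039, edgeR adjusted p = 1.34e-09). PSMD1, the other large scaffold, rose by 0.41 and PSMD4, a ubiquitin receptor, by 0.17. In the lid 7 of 8 genes were higher, with a median log2 fold change of 0.30. Over all tested genes 27.2% were higher, and 41.7% of the abundant genes. PSMD12, PSMD11, PSMD8, PSMD13, PSMD6, PSMD14 and PSMD3 rose by 0.43, 0.39, 0.31, 0.30, 0.29, 0.23 and 0.11. The PSMD3 call held in 4 of the 11 alternative fits, and was lost without shMETTL14 library 1 at 0.11, without shMETTL14 library 2 at 0.13 and without shNC library 2 at 0.07.

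The lid gene PSMD7 stood apart from its partner. PSMD14 encodes the deubiquitinase of the lid and PSMD7 the inactive subunit with which it pairs. PSMD14 had 1876 and 1991 counts in shNC and 2264 and 2254 in shMETTL14, an increase. PSMD7 had 3255 and 3186 counts in shNC and 3112 and 3051 in shMETTL14, lower in both knockdown libraries, with a log2 fold change of -0.05 (SE 0.042) that was not called (edgeR adjusted p = 0.285). PSMD7 was called lower with library size alone and with upper quartile scaling. It shares 30.7% of its exonic bases with a transcript on the opposite strand.

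Summed over genes, core RNA was 1599 and 1673 CPM in shNC and 2123 and 2208 CPM in shMETTL14. The mean was 132% of the shNC mean. Cap RNA was 2112 and 2137 CPM in shNC and 2574 and 2580 CPM in shMETTL14, or 121% of shNC. The replicates of each group lay within a few percent of each other, and neither sum overlapped between groups. The ratio of core to cap CPM was 75.7 and 78.3 per 100 in shNC and 82.5 and 85.6 per 100 in shMETTL14. These CPM are not scaled for gene length, and the cap subunits SEM1 and ADRM1, which carry other symbols, are left out. The ratio therefore compares libraries and does not give the relative amounts of core and cap RNA. The assembly factors POMP and PAAF1 carry other symbols and are not in the next sum, at 161% and 86.7% of shNC. The 7 assembly factors with a PSM symbol summed to 256 and 260 CPM in shNC and 270 and 277 CPM in shMETTL14. This was 106% of shNC. Activators and the inhibitor summed to 388 and 384 CPM against 423 and 421 CPM, or 109%. For a single value of this kind, 2 libraries against 2 allow no two-sided exact permutation p below 0.33. In bulk RNA a change in the number of cells with a high level and a change in RNA per cell cannot be told apart.

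**Figure D2:**
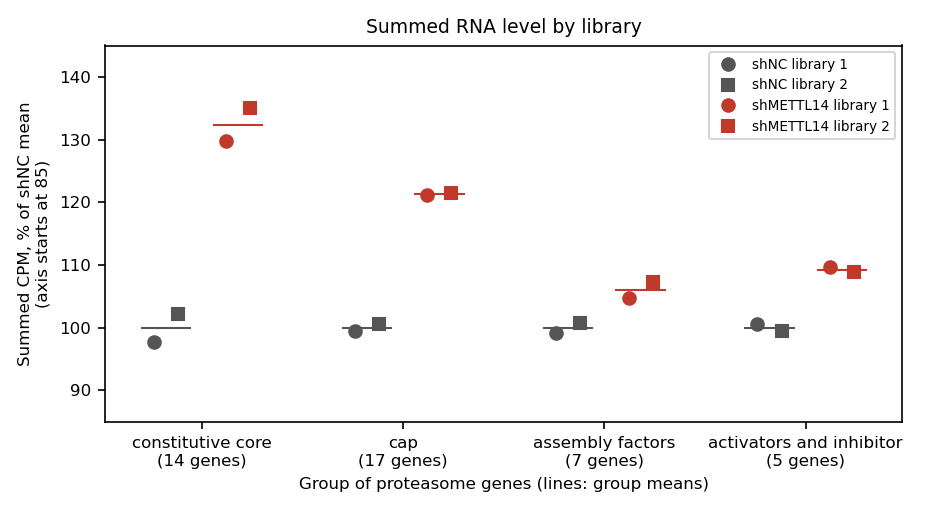
Summed CPM of 4 groups of proteasome genes in each library, as a percentage of the shNC mean. The vertical axis starts at 85, points are libraries and lines are group means. The shMETTL14 libraries lie above both shNC libraries in each group. Their means are 132% for the core, 121% for the cap and 109% for activators and the inhibitor. The assembly factors, only those with a PSM symbol, are at 106%.

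Assembly factors are chaperones that build the core and cap and leave before the complex is complete. Of the 7 with a PSM symbol, 2 were higher, 1 was lower and 4 were not called, with a median log2 fold change of 0.06. The share called higher was 28.6%, close to the 27.2% of all tested genes. PSMG1 and PSMG2 encode a pair that starts the alpha ring. PSMG1 had 1379 and 1263 counts in shNC and 1490 and 1486 in shMETTL14, a log2 fold change of 0.18 (SE 0.052, edgeR adjusted p = 0.00533) that was not called with DESeq2 or upper quartile scaling. PSMG2 had 652 and 673 counts in shNC and 651 and 702 in shMETTL14, with overlapping groups.

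PSMG3 and PSMG4 encode a second pair that acts on the same ring, and their RNAs went in opposite directions. PSMG3 had 565 and 527 counts in shNC and 717 and 736 in shMETTL14, a log2 fold change of 0.42 (SE 0.075, edgeR adjusted p = 6.03e-05). PSMG4 (ENSG00000180822, chr6:3231403-3303373) had 636 and 632 counts in shNC and 510 and 526 in shMETTL14. It fell by 0.28 on the log2 scale (SE 0.077, edgeR adjusted p = 0.00409) and was the only member called lower. PSMG4 shares 15% of its exonic bases with SLC22A23 and TUBB2B on the opposite strand. PSMG3 shares 3.06%.

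The remaining factors, PSMD5, PSMD9 and PSMD10, help to assemble the ATPase ring. PSMD5 had 1356 and 1329 counts in shNC and 1354 and 1303 in shMETTL14, and PSMD10 had 458 and 508 in shNC and 505 and 497 in shMETTL14. In both the groups overlapped. PSMD9 had 54 and 47 counts in shNC and 61 and 78 in shMETTL14, and its log2 fold change of 0.47 (SE 0.24) was not called (edgeR adjusted p = 0.0999).

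The activators open the core without the cap, and PSMF1 is an inhibitor of the core in vitro. PSME1 and PSME2 form an interferon-induced ring. PSME1 had 1035 and 1034 counts in shNC and 1170 and 1130 in shMETTL14, and PSME2 had 941 and 938 in shNC and 1055 and 1041 in shMETTL14. Their log2 fold changes of 0.16 (edgeR adjusted p = 0.0218) and 0.17 (edgeR adjusted p = 0.0234) were called, and each call held in 5 of the 11 alternative fits. Both calls were lost without shMETTL14 library 1, without shMETTL14 library 2 and without shNC library 1, where PSME1 was at 0.15, 0.18 and 0.13 and PSME2 at 0.17, 0.17 and 0.14. PSME4, which encodes a large nuclear activator, had 2405 and 2161 counts in shNC and 2591 and 2533 in shMETTL14, a log2 fold change of 0.18 (edgeR adjusted p = 0.00266). PSME3, a nuclear relative of PSME1, had 2562 and 2469 counts in shNC and 2669 and 2614 in shMETTL14 and was not called (edgeR adjusted p = 0.124). PSMF1 had 794 and 748 counts in shNC and 799 and 775 in shMETTL14 and was also not called. These genes moved by no more than 0.18 on the log2 scale, below the value of each called core and cap gene except PSMD3 and PSMD4.

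The 2 genes with a PSM symbol but another role are PSMC3IP, which acts in meiotic recombination, and PSME3IP1, which binds PSME3. PSMC3IP had 777 and 620 counts in shNC and 893 and 845 in shMETTL14, a log2 fold change of 0.33 (edgeR adjusted p = 0.00137), which was 0.20 without shNC library 2, and 29.9% of its exonic bases are shared with MLX on the opposite strand. PSME3IP1 was not called, with a log2 fold change of 0.04.

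**Figure D3:**
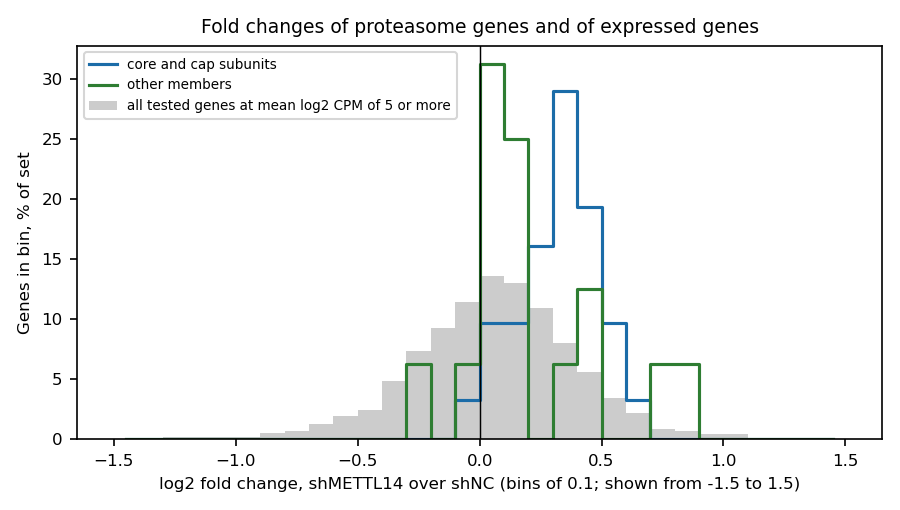
Distribution of log2 fold changes in bins of 0.1 for the 31 core and cap subunits, the 16 other tested members, and the 6467 tested genes with a mean log2 CPM of 5 or more. Each set is a percentage of itself. The core and cap genes peak between 0.3 and 0.4, which holds 29% of them and 7.99% of the abundant genes, while the other members peak between 0 and 0.1.

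Among themselves the core and cap genes differed more in level than in response. Level was compared as counts per kilobase of exon, scaled to the same total in every library. In shNC, 28 of the 31 genes ranged from 30.2 for PSMD11 to 427 for PSMA7, with a median of 104. PSMB3, PSMB4, PSMB7, PSMB5 and PSMB1 lay at 334, 302, 298, 281 and 271. The order depended on the length used. Scaled by the length of the principal transcript in place of all exons, the same 28 genes ranged from 39.5 to 557 with a median of 156. PSMA7 was again highest at 557, while PSMB4, PSMB1, PSMB7, PSMB3 and PSMB5 lay at 503, 491, 404, 379 and 285, with PSMD4 at 296.

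PSMA1, PSMA2 and PSMA6 lay far below the other subunits, at 13.4, 2.69 and 1.42 in shNC by exon length and 21.9, 7.18 and 6.67 by principal transcript, although each contributes the same number of copies to the complex as the other alpha subunits. Their coding sequences lie almost wholly within second genes annotated on the same strand. These second genes cover 91.0% of the principal coding sequence of PSMA1, 100% of that of PSMA2 and 89.7% of that of PSMA6, and they were themselves counted 0 to 2 times per library. Other genes on the same strand also cover 60.0% of the principal coding sequence of PSMB10 and 68.3% of that of PSMD9. These were not all near 0. The one that shares exons with PSMB10 had 13 and 12 counts in shNC and 22 and 16 in shMETTL14. CFAP251, 1 of those that share exons with PSMD9, had 15 and 32 in shNC and 13 and 12 in shMETTL14. By exon length PSMD9 lay at 0.967 in shNC. In every library 5.01 to 5.32% of all reads were set aside as ambiguous between genes. The part of this overlap in the low levels was not tested, and these 5 genes were not ranked by level. Of the 20 core and cap genes that share no exonic base with another gene, 19 were higher, with a median log2 fold change of 0.37. Over all tested genes 27.2% were higher, and 41.7% of the abundant genes.

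**Figure D4:**
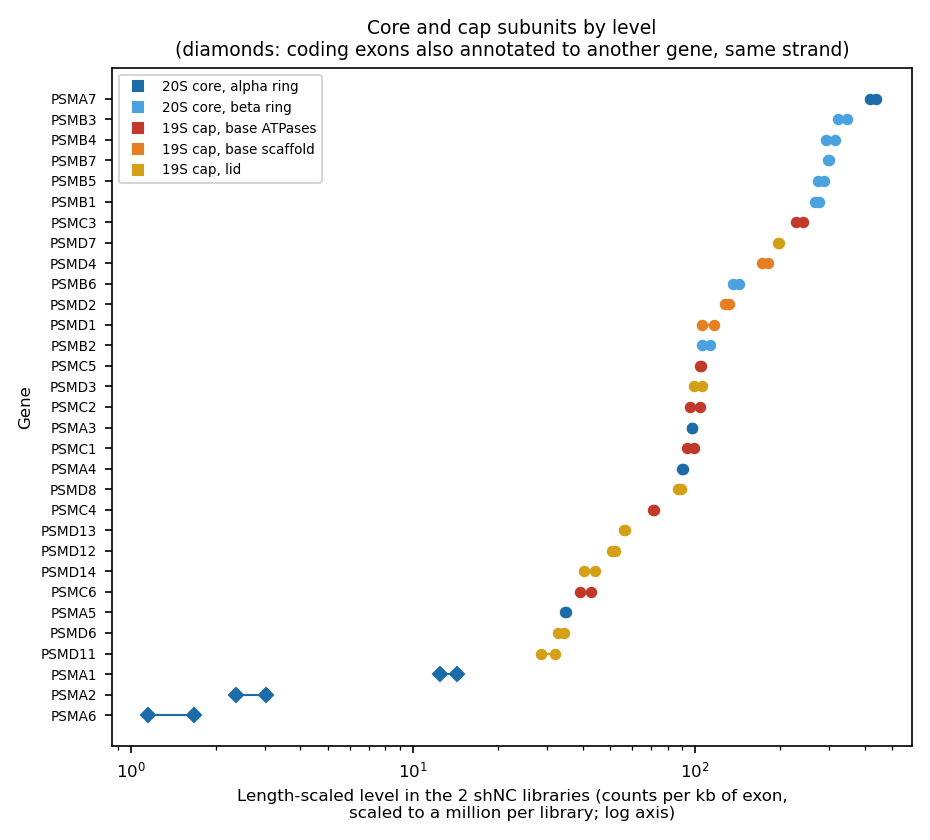
Length-scaled level of the 31 core and cap genes in the 2 shNC libraries, in counts per kilobase of exon scaled to the same total in every library, on a log axis. Points are libraries, and diamonds mark genes whose coding exons are also annotated to another gene on the same strand. PSMA6, PSMA2 and PSMA1 sit at 1.42, 2.69 and 13.4, and the other genes lie between 30.2 and 427.

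Processed copies took few counts. Of 51 further genes with a PSM symbol that do not encode protein, 44 were pseudogenes and 30 had 0 counts in every library. PSMA6P1 had 27 and 33 counts in shNC and 44 and 53 in shMETTL14, of the same order as PSMA6 itself, so reads of PSMA6 and its copy are uncertain. PSMC1P1 had 81 and 74 counts in shNC and 68 and 109 in shMETTL14, small beside the 3479 and 3582 counts of PSMC1 in shNC. PSMC1 shares 75.8% of its exonic bases with NRDE2 on the opposite strand, and NRDE2 had 484 to 505 counts.

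The members lie on 17 chromosomes, with 8 on chromosome 14 and 8 on chromosome 17. The letters GGACT, the most frequent form of the m6A consensus, occurred at a median of 1.00 per kilobase of the members' principal transcripts and 0.826 in the core, beside 0.933 over all tested genes. These transcripts are shorter, with a median of 1579 bases for members and 1012.5 for the core, beside 3245 over all tested genes. The median count of the letters per transcript was 2, 1 and 3 in that order. Methylation was not analysed here, and the presence of these letters does not show that a transcript is methylated.

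NFE2L1, the transcription factor that raises proteasome genes when proteolysis is impaired, binds antioxidant response elements as a dimer with a small MAF protein. The core letters of this element, TGACNNNGC, were searched on both strands of RefSeq promoters (GRCh38.p14), from 250 bases before to 50 bases after each start. Promoters were matched for 44 of the 50 members, and those of PSMA7, PSMB1, PSMB6, PSMB7, PSMD4 and PSMG3 were not matched. The letters occurred in 13 of the 44 promoters (29.5%) beside 13.6% of all 27305 promoters. In the core and cap they occurred in 5 of 26 promoters (19.2%), and among the other members in 8 of 18 (44.4%). The 5 core and cap genes with the letters are given with their sites, because their sequences can be set beside the response of each gene. Capitals mark the matched letters, each site is written 5′ to 3′ on the strand that holds them, and distances are from the RefSeq start.
PSMB3, chr17:38752629-38752653, plus strand, 104 bases before the start: ctccgtttTGACTTTGCaaccaaac
PSMD12, chr17:67366726-67366750, minus strand, 165 bases before the start: acaaaaccTGACGCTGCaggctgga
PSMD1, chr2:231056898-231056916, plus strand, 39 bases after the start: gaggcgacTGACTGAGCag
PSMC4, chr19:39971184-39971208, minus strand, 27 bases after the start: ctccatagTGACCAAGCcggcctct
PSMD3, chr17:39980762-39980786, plus strand, 37 bases before the start: ccctttgtTGACTCGGCcatcggcc
PSMD3, chr17:39980832-39980856, minus strand, 33 bases after the start: ccgcacgaTGACGGAGCagctgcaa

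Of these genes, PSMB3, PSMD12, PSMD1 and PSMC4 rose by 0.44, 0.43, 0.41 and 0.41 on the log2 scale. PSMD3, which has the letters on both strands, rose by 0.11. Across members the median log2 fold change was 0.18 for the 12 tested genes with the letters and 0.31 for the 29 without. The core genes with the largest increases, PSMA5, PSMB5, PSMA3 and PSMB2, had none in this window. A match is only a description of the letters and not evidence of a bound site.

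Genes that work with the proteasome but carry other symbols moved in both directions. Of 29 such genes 20 were higher, 3 were lower and 6 were not called, with a median log2 fold change of 0.22. Over all tested genes 27.2% were higher and 25.3% lower, and among the abundant genes described above 41.7% and 26.2%. The subunit genes without a PSM symbol rose most clearly. SEM1, a small lid subunit, had 1381 and 1287 counts in shNC and 2028 and 2120 in shMETTL14, a log2 fold change of 0.65 (SE 0.050, edgeR adjusted p = 4.89e-10). ADRM1, a ubiquitin receptor of the cap, had 1636 and 1581 counts in shNC and 2367 and 2274 in shMETTL14, a log2 fold change of 0.54 (SE 0.046, edgeR adjusted p = 2.25e-09). POMP, the factor that completes the core, had 649 and 703 counts in shNC and 1016 and 1150 in shMETTL14, a log2 fold change of 0.69 (SE 0.076, edgeR adjusted p = 1.07e-07). PAAF1, the other assembly factor in this list, had 369 and 411 counts in shNC and 349 and 324 in shMETTL14, a log2 fold change of -0.20 that was not called (edgeR adjusted p = 0.0837).

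Among the regulators, NFE2L1 itself changed little. It had 4435 and 4038 counts in shNC and 4703 and 4417 in shMETTL14, and the scaled levels did not overlap. The call of its log2 fold change of 0.12 (SE 0.042, edgeR adjusted p = 0.0260) was lost in 6 of the 11 alternative fits, among them without shMETTL14 library 1 at 0.09 and without shNC library 2 at 0.08. Its activity depends on cleavage of the protein, which RNA does not measure. DDI2, the protease that makes this cut, had 990 and 841 counts in shNC and 813 and 797 in shMETTL14, and its decrease of 0.18 on the log2 scale was lost in 5 alternatives. These were DESeq2, no filter, and the fits without shMETTL14 library 1 (-0.17), shMETTL14 library 2 (-0.16) and shNC library 1 (-0.09). The dimer partners MAFF and MAFG rose by 0.89 and 0.46, and the related factor NFE2L2 by 0.27. The other small MAF gene, MAFK, had 18 counts in each shNC library and 20 in each shMETTL14 library and was not called (edgeR adjusted p = 0.758).

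Among 11 genes for shuttles, remodelling factors, adaptors and importers, 8 were called higher, 2 were called lower and 1 was not called. Over all tested genes 27.2% were higher and 25.3% lower, and among the abundant genes 41.7% and 26.2%. VCP, the ATPase that extracts ubiquitinated proteins, rose by 0.44, and MIDN, which delivers nuclear proteins without ubiquitin, by 0.52. RAD23B, which encodes a shuttle for ubiquitinated proteins, rose by 0.30. UBQLN4, ZFAND5, UBQLN2, UBQLN1 and IPO9 rose by 0.27, 0.23, 0.21, 0.18 and 0.11. The UBQLN1 call was lost with upper quartile scaling at 0.11. The IPO9 call was lost with DESeq2 at 0.11 and with library size alone at 0.07, among others. ECPAS, an adaptor that binds the cap, fell by 0.32. AKIRIN2, which imports proteasomes into the nucleus, fell by 0.22, a call lost without shMETTL14 library 1 at -0.17. The ligase gene UBE3C and the deubiquitinase genes USP14 and UCHL5, whose products bind the cap, rose by 0.45, 0.22 and 0.13, the last a call lost without shMETTL14 library 1 at 0.09, with DESeq2 at 0.13, with library size alone at 0.08 and with upper quartile scaling at 0.06. UBA1 and UBA6, which encode the enzymes that activate ubiquitin, rose by 0.22 and 0.26. The ubiquitin genes UBB and RPS27A, which have near-identical copies in the genome, were not called.

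**Figure D5:**
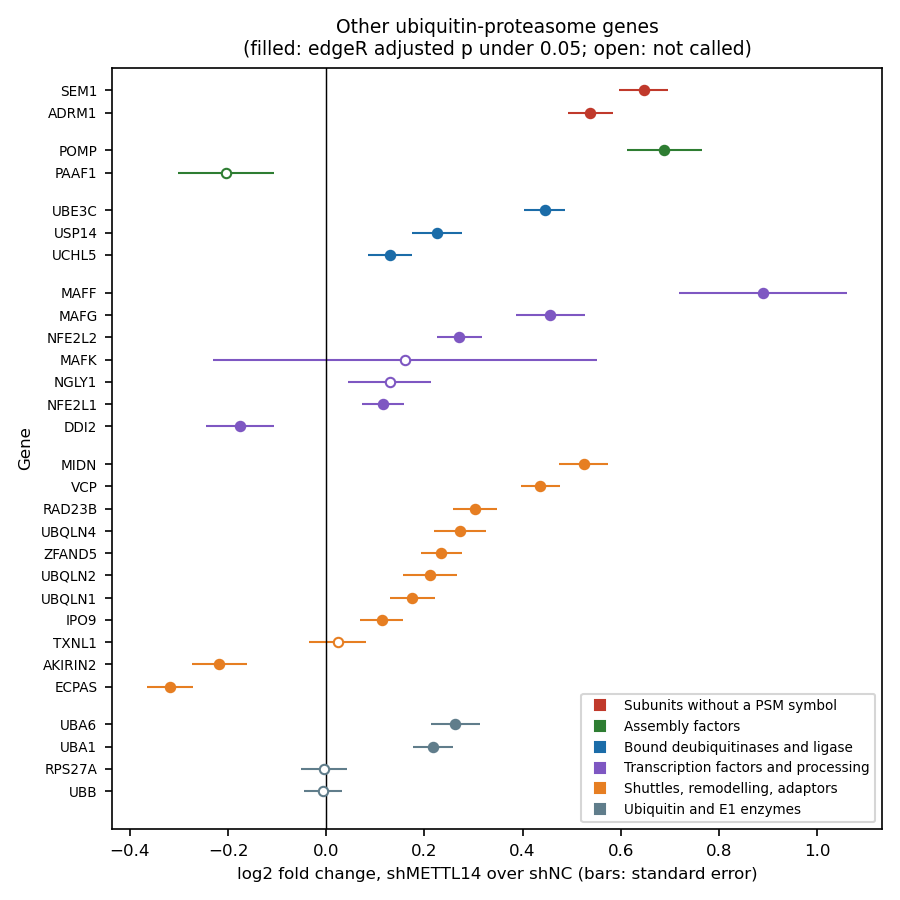
Log2 fold change of 29 other genes of the ubiquitin-proteasome system, shMETTL14 over shNC, with its standard error, from 2 libraries per group. Filled points passed an edgeR adjusted p of 0.05. SEM1, ADRM1 and POMP lie between 0.54 and 0.69, while ECPAS, AKIRIN2 and DDI2 are the filled points below 0.

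Scaling moved the size of these changes but not the direction of the called members. Under upper quartile scaling the median of all tested genes shifted to -0.07 and the split of all calls from 51.8% to 41.7% higher, and 27 members remained higher. In all 11 alternative fits 27 of the 34 members stayed higher. The other 7 were PSMA1, PSMD3, PSMD4, PSMG1, PSME1, PSME2 and PSME4, each with a log2 fold change of at most 0.31. Markers of other cell types were low in every library. The summed level of PTPRC, PECAM1, EPCAM and COL1A1 was 19.1 to 19.6 CPM in shNC and 13.0 to 14.1 CPM in shMETTL14, with PECAM1 at 0 in a library of each group, and their part in the results was not tested.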

How the data were processed

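The values were raw counts that the authors deposited for the 4 libraries in a single table, keyed by Ensembl gene ID and not normalized. Libraries from total RNA were sequenced by Illumina NovaSeq with paired reads of 150 bases. The submitters' processing notes name HISAT2 2.1.0, StringTie 1.3.6, HTSeq 0.13.5, edgeR and the build GRCh38 (hg38), without their order or role. The strand setting and the annotation release are not given in the sources used here, so reads of overlapping genes on opposite strands cannot be told apart. Lines for reads assigned to no gene held 19.1 to 19.9% of counts (11.2 to 12.3% without a feature, 5.01 to 5.32% ambiguous, 2.52 to 2.58% not unique) and were left out.

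Symbols, types, exons and coordinates came from GENCODE 29 and a gene name table, and 58453 of the 60671 IDs were in GENCODE 29. Groups followed the labels. Genes were kept with filterByExpr of edgeR 4.0.16 (minimum count 10, minimum total 15), scaled by TMM and fitted with group as the only term. Quasi-likelihood F-tests received Benjamini-Hochberg adjustment across the 16309 genes tested, and genes at an adjusted p under 0.05 were called. The biological coefficient of variation was 3.45%. CPM are TMM-scaled, standard errors are on the log2 scale, and exact 2 against 2 permutation is stated where it applies. The scripts were tested on simulated data. Alternatives were RLE, upper quartile and library size scaling, no filter, at least 10 counts in every library, DESeq2 1.42.0, a replicate block, each library left out, and an adjusted p under 0.01.

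Members and gene lists were chosen with earlier results of these data known. Counts in every library are given for METTL14, the 6 called members with the largest increases and up to 6 with the largest decreases, the alternative and catalytic subunits, activators, the inhibitor, assembly factors, NFE2L1, POMP, ADRM1 and SEM1. PSMA1, PSMA2, PSMA6, PSMC6, PSMD7, PSMD14, PSMC3IP, DDI2, PAAF1 and MAFK were added after their values were seen. Protein sequences were not used here, and some pathway and marker genes are not reported here and were left out of the lists.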

Additional observations from a re-analysis of the deposited data

How the results depend on the processing

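The members called higher numbered 27 to 34 over the other scalings, filters and tests, 30 at an adjusted p under 0.01, and 30 to 32 when a library was left out, beside 34 as reported. The members called lower were 1 as reported and with each library left out, and 2 with library size alone and with upper quartile scaling, which added PSMD7 at -0.10 and -0.12. Upper quartile scaling also moved PSMC1 to 0.12, PSMD4 to 0.10, PSMD3 to 0.04, PSMG1 to 0.11, PSME1 to 0.09, PSME2 to 0.10 and PSME4 to 0.11, and all of these but PSMC1 were then not called. Among the 25 members that share no exonic base with another gene, 20 of 23 tested were higher and 0 were lower with edgeR. This restriction was chosen after seeing the data, and over all tested genes 27.2% were higher and 25.3% lower. The median log2 fold change of members was 0.30, and 0.26 with library size alone and 0.23 with upper quartile scaling, where the shifted median of all genes accounts for the move, and 0.28 to 0.30 when a library was left out. METTL14 lay between -1.33 and -1.21 in every fit, with -1.31 to -1.21 when a library was left out. All genes called higher numbered 3909 to 4028 and lower 3365 to 3529 when a library was left out. The pathway genes called higher were 17 to 20 and those called lower 1 to 3 when a library was left out, beside 20 and 3 as reported, with 1 called lower without shMETTL14 library 1, where DDI2 and AKIRIN2 were lost. Fits without a library leave 1 group with a lone library that is assumed to vary like the other group.

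Values that turned direction belonged only to genes not called in either fit. With library size alone and upper quartile scaling these were PSMA2 (-0.018 and -0.040), PSMA6 (-0.034 and -0.056), PSMG2 (-0.0057 and -0.028), PSMF1 (-0.0059 and -0.028) and PSME3IP1 (-0.0048 and -0.027). With upper quartile scaling alone they were PSMC6 (-0.0081) and PSMD10 (-0.0064). Under the stricter filter of 10 counts in each library PSMA6 was -0.0065, and PSMD5 was 0.0045 with no filter. When a library was left out, PSMA2 ranged from -0.12 to 0.20, PSMA6 from -0.22 to 0.30, PSMG2 from -0.020 to 0.11, PSMD5 from -0.025 to 0.018, PSMD10 from -0.044 to 0.17 and TAP1 from -0.13 to 0.70.

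The labels do not say whether libraries that share a replicate number share a culture or day, and the values below cannot decide it. Between libraries that share a number, the departures from the group mean showed little correlation across 16309 genes (Pearson's r = -0.0018, Spearman's rho = 0.022), and genes are not independent replicates. With the numbers as a replicate block, 34 members were higher and 1 lower, METTL14 was at -1.26, and all genes called were 4619 higher and 4307 lower. PSMB9, PSMB10 and PSMD9 had few counts, and what kept their counts low was not tested.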
